A study of Mus musculus with 12 samples.

Results

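Fat that a liver cell does not burn or export is stored in lipid droplets, in which a core of triglyceride is wrapped in a single layer of phospholipid and coated with proteins. The 10 genes of this machinery followed here were the droplet coat and growth genes Plin2, Cidea, Cidec, Hsd17b13 and Hsd17b11, the lipolysis genes Pnpla2 and G0s2, the triglyceride synthesis gene Mogat1, and the fatty acid uptake and binding genes Cd36 and Fabp4. They were chosen by name from the gene names in the scanner files, with results of these arrays already known, so the differences between groups below are a description and carry no test. All 10 genes were on the array, with 13 probes in all, out of 34844 gene names and 55681 probes. Each gene kept at least 1 probe after the filter on dim probes, and 12 of the 13 probes passed it.

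In a liver cell the droplet coat protein perilipin 2 shields the stored fat, the CIDE proteins let small droplets merge into larger ones, and the lipase ATGL (the product of Pnpla2) begins the breakdown of triglyceride, which the protein G0S2 inhibits. Fatty acids enter partly through CD36 and are carried in the cytosol by fatty acid binding proteins. Cidea, Cidec, Mogat1 and Cd36 are targets of the nuclear receptor PPAR gamma and are known to be induced in fatty liver, while Cidea, Cidec and Fabp4 are best known from fat tissue: Cidea from brown adipocytes, Cidec and Fabp4 from white.

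The study examined liver cancer in 129/SV/B6 mice, labelled male, given the carcinogen diethylnitrosamine (DEN, 50 mg/kg) at 2 weeks of age. All mice received poly(IC) 8 months later, and tissue was taken 1 week after that, following irradiation with a bone marrow transplant 2 months earlier, so every group below had all of these treatments. Poly(IC) evokes interferon, which switches on the Mx promoter that drives the Cre recombinase in Mxcre+ mice, in liver cells and in blood cells alike. The labels give neither the marrow donors nor the survivin alleles of single mice. Each group has 3 arrays: Mx+tumor (survivin-deleted hepatocellular carcinoma, HCC, of Mxcre+ mice), Mx-tumor (survivin wild-type HCC of Mxcre- mice), Mx+liver (survivin-deleted non-cancerous liver) and Mx-liver (survivin wild-type non-cancerous liver). Nothing in the labels says that the 3 arrays of a group came from 3 animals, or whether tumor and liver arrays shared animals, so the spread between arrays may be partly technical. In bulk tissue, fewer cells of a type and less RNA per cell cannot be told apart.

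Values are relative log2 signals: the log2 of the processed spot signal minus the 75th percentile of the array, so that 1 unit is a doubling and 0 is the 75th percentile itself. Probes differ in brightness for the same amount of RNA, so levels were compared between arrays and not between genes. Probe positions are those of the array design on mm9, the Cidea probe lying on chromosome 18, 67527351 to 67527410 (plus strand), and the others are given with their genes. Replicate 1 of every group was hybridised on slide 1, with percentile signals of 1131 to 1766, and replicates 2 and 3 on slide 2, with 3343 to 3906. On Mx-liver replicate 1, 49.0% of spots were well above background, against 69.2 to 83.4% on the others. The table of processed values deposited by the authors holds Mx+liver replicate 1 and Mx-tumor replicate 1 the other way round than the scanner files, and values with these 2 arrays exchanged are given wherever they alter a statement. Birc5, the survivin gene, gave 0.06, 0.17 and -0.08 on Mx+tumor, 0.80, 0.82 and 1.76 on Mx-tumor, 2.42, -0.10 and -1.07 on Mx+liver, and 2.85, 0.51 and 0.76 on Mx-liver on its brightest probe. The tumor groups were apart and the liver groups overlapped. Birc5 differed by -1.08 between Mx+tumor and Mx-tumor (SE 0.83, exact permutation p = 0.1, the smallest that 3 against 3 arrays allow) and by -0.96 between Mx+liver and Mx-liver (SE 0.83, exact permutation p = 0.5) with the arrays as filed. With the 2 arrays exchanged these differences were -1.62 and -1.50 (exact permutation p = 0.1 and p = 0.3). In each of the 3 same-numbered pairs Birc5 was lower in the deleted array, in both tissues and with the arrays as filed or exchanged, a pairing that the permutation does not use. XIST, the RNA that silences an X chromosome in female cells, also differed by genotype on the brightest probe under that name. It gave -4.89, -6.18 and -6.33 on Mx+tumor and -4.12, -1.88 and -2.13 on Mx-tumor. On Mx+liver it gave -2.32, -5.96 and -6.09, and on Mx-liver -1.77, -1.31 and -1.87. On slide 2 the Mx+ arrays were thus all below the Mx- arrays, and with the 2 arrays exchanged this held on slide 1 too. A probe filed under the name Xist, well above background on 10 arrays, did not keep that order. On slide 2 it gave -3.78 and -5.72 on Mx+tumor and -2.31 and -2.95 on Mx-tumor. On Mx+liver it gave -3.67 and -5.32 there, and on Mx-liver -5.61 and -3.09. The other probes of the gene kept the order on slide 2. The Y-linked gene Eif2s3y was well above background on all 12 arrays, at -1.70 to 1.44. Y-linked Ddx3y was too, but at -5.00 on Mx-tumor replicate 3 and -1.08 on Mx-liver replicate 3, with 0.38 to 2.10 on the others. Of Y-linked Uty, 1 probe was well above background on 10 arrays and another on 4, and Kdm5d was on 0. What these sex-linked transcripts have to do with the genotype differences below was not tested, and these genes were looked up after other values were seen. All 12 hepatocyte markers checked, such as Alb and Apoa1, were well above background on every array.

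One array stood apart for genes of fat tissue. Mx+liver replicate 3 was the highest of the 12 arrays for 15 of 18 white adipocyte markers and for 5 of 8 brown adipocyte markers. Slc36a2 is on both lists and counts in both. Of the brown markers, Elovl3 and Cox7a1 were highest on Mx-liver replicate 3, at 0.55 and 1.55. They gave -1.08 and 1.08 on Mx+liver replicate 3. Dio2 was highest on Mx-tumor replicate 1 (-3.57, with -3.63 on Mx+liver replicate 3). The mean relative log2 signal of the white markers was 0.97 on Mx+liver replicate 3 and lay between -2.89 and -1.81 on the other 11 arrays. For the brown markers it was -0.10 on that array and between -5.20 and -3.33 on the other 11. The summed linear level of the white markers was 140.52 there and 28.19 to 106.51 elsewhere. The list includes Car3 and Thrsp, which liver expresses too and which had signals of 2.57 to 5.92 and 3.75 to 5.43 over the 12 arrays.

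Perilipin 1, the main droplet coat protein of adipocytes, gave Plin1 signals of 0.80 on Mx+liver replicate 3 and of -4.46 on the next highest array, a ratio of 38.2. Cfd, the adipocyte-secreted complement factor D, reached 4.83 there and -1.23 on the next array. Ucp1, which makes brown fat produce heat, stood at 2.07 there and at no more than -4.10 elsewhere, a ratio of 72.0. Ucp1 was well above background on 6 of 12 arrays, Plin1 on 9 and Cfd on 11. Adipoq, the adiponectin gene, was detected on all 12 arrays, at 4.54 on Mx+liver replicate 3 and at 2.70 on the next. The hormone gene Retn had 3.73 there against 0.72 on the next array, and Lipe, hormone-sensitive lipase, 1.88 against 0.30. Lep, the leptin gene, was well above background on Mx+liver replicates 1 and 3 only and there only at -5.14 and -4.94, and Car3 was not highest on replicate 3 (5.10, with 5.92 on Mx-liver replicate 1).

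The same array was also highest for genes of striated muscle. Mb, the myoglobin gene, gave 1.04 on Mx+liver replicate 3 and at most -5.47 on the other arrays. Myh4, a fast myosin heavy chain gene, gave 1.88 there and at most -4.36 elsewhere. Myh8, Ckm, Tnnt3, Acta1 and Tnni2, muscle genes all, were highest there too. These muscle genes were picked after their values were seen. In total 46 of 26506 genes were more than 2 log2 units above the next array there, some of them against values below background, where the size of such a lead is not known. The mean of the hepatocyte markers was 5.11 there, within the 4.72 to 5.51 of the others. The mean of mesothelial and stellate cell markers was 0.76 there and -0.41 to 0.28 on the others. Of the 10 lipid genes, Cidea (lead 2.05), Cidec (1.34) and Fabp4 (1.01) were highest on this array, at ranks 45, 89 and 134 of 26506 by the size of the lead, and the other 7 were not. The array was highest for 1207 genes, 4.6% of all. Comparisons of these 3 genes that use Mx+liver are therefore given with and without this array.

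**Figure D1:**
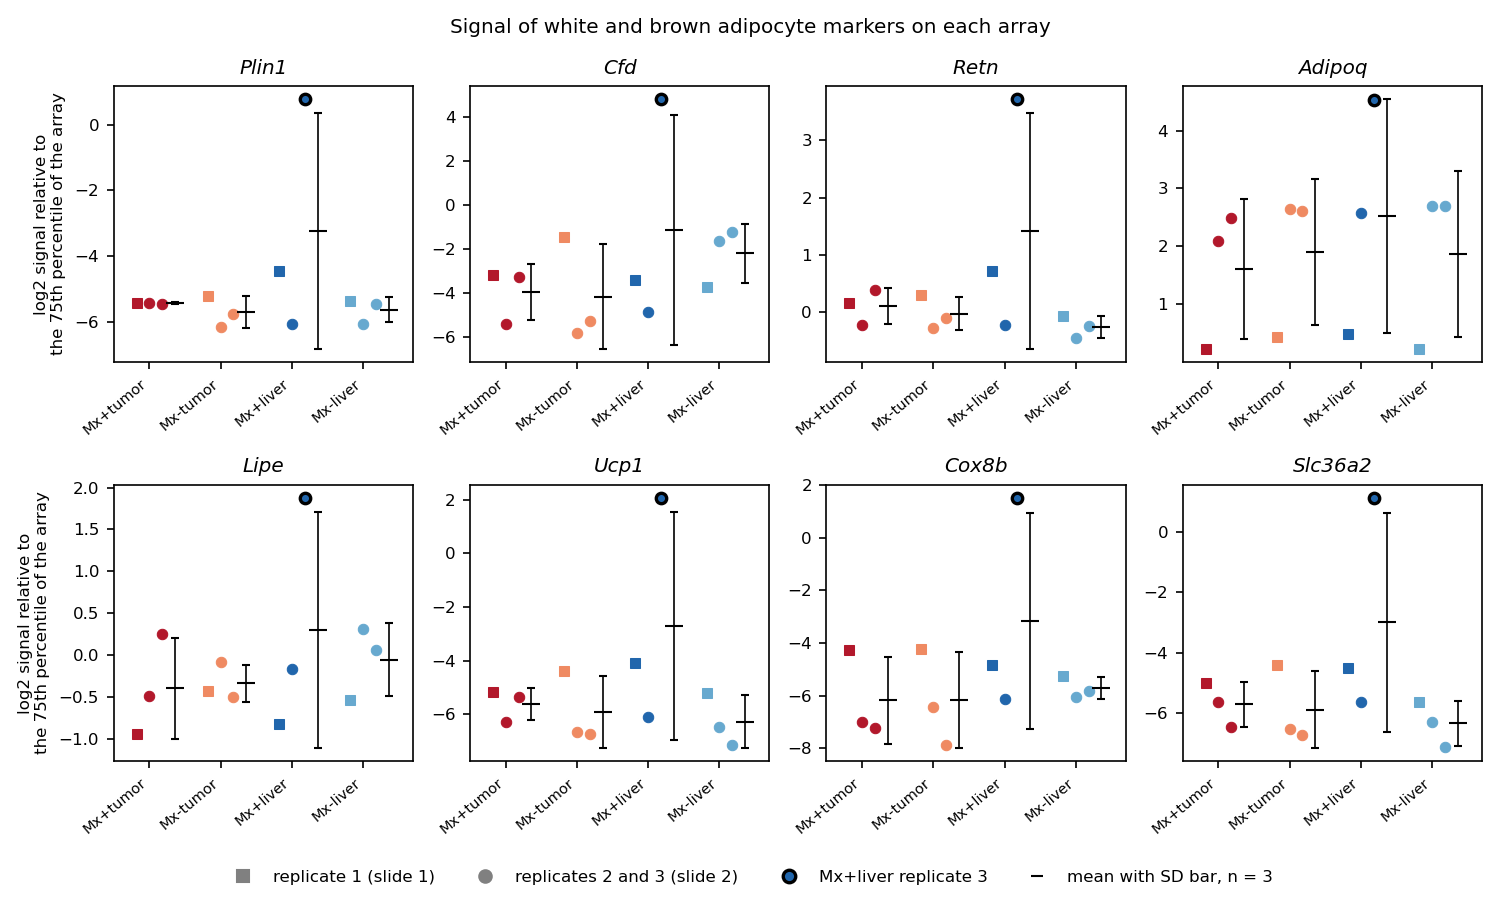
Relative log2 signal (vertical axis) of 5 white adipocyte markers (Plin1, Cfd, Retn, Adipoq, Lipe) and 3 brown adipocyte markers (Ucp1, Cox8b, Slc36a2) on each of the 12 arrays, by group (horizontal axis), with squares for slide 1, circles for slide 2 and the mean with its SD beside each group of 3. Mx+liver replicate 3, circled in black, is the highest point in every panel, at 0.80 for Plin1, 4.83 for Cfd and 2.07 for Ucp1. Markers that were highest on another array, such as Car3, Elovl3, Cox7a1 and Dio2, are not shown.

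Plin2 encodes perilipin 2, the main droplet coat protein of hepatocytes, whose amount follows the amount of stored fat. Its probe lies on chromosome 4, 86302847 to 86302906 (mm9, minus strand). Relative log2 signals of Plin2 were 4.42, 2.99 and 3.37 on Mx+tumor replicates 1 to 3, 3.66, 4.08 and 4.52 on Mx-tumor, 3.82, 3.38 and 3.58 on Mx+liver, and 2.64, 3.36 and 4.03 on Mx-liver. Mx-tumor had the highest mean (4.09 ± 0.43), and Mx+liver (3.59 ± 0.22), Mx+tumor (3.59 ± 0.74) and Mx-liver (3.34 ± 0.69) followed (SD, n = 3 each). All 4 groups overlapped, so no neighbours in this order were apart by more than their spread. Between Mx+tumor and Mx-tumor the difference was -0.49 (SE 0.45), but the slides pointed opposite ways, at 0.76 on slide 1 and -1.12 on slide 2. Mx-tumor was 0.74 (SE 0.45) above Mx-liver, at 1.02 on slide 1 and 0.61 on slide 2.

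Hsd17b13 encodes a droplet-bound member of the hydroxysteroid dehydrogenase family that is found almost only in liver, and Hsd17b11 encodes its closest relative. The brighter Hsd17b13 probe (chromosome 5, 104392792 to 104392851, mm9, minus strand) is shown because it carries the difference between the tumor groups. Read in threes from its first base, it holds a single stop codon, at its end, in capitals.
Hsd17b13, brighter probe: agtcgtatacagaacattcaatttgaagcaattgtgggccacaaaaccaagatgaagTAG
On this probe the signals were 5.06, 2.92 and 4.59 on Mx+tumor, 5.57, 5.34 and 5.35 on Mx-tumor, 5.10, 4.43 and 4.18 on Mx+liver, and 5.34, 4.93 and 4.89 on Mx-liver. Every Mx+tumor array lay below every Mx-tumor array. The group means were 4.19 ± 1.12 for Mx+tumor and 5.42 ± 0.13 for Mx-tumor (SD, n = 3 each), a difference of -1.23 (SE 0.49), or 2.35-fold lower. Much of it came from Mx+tumor replicate 2, without which the difference was -0.60. With the 2 arrays exchanged it was -1.08 and the groups still did not overlap. The groups also did not overlap between Mx-tumor and Mx-liver (5.42 ± 0.13 and 5.05 ± 0.25, difference 0.37, SE 0.49), but they did with the 2 arrays exchanged (0.21). Mx+liver and Mx-liver overlapped (4.57 ± 0.48 and 5.05 ± 0.25, difference -0.48, SE 0.49). So did Mx+tumor and Mx+liver (difference -0.38, SE 0.49), with the opposite sign without Mx+tumor replicate 2 (0.25).

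The second Hsd17b13 probe lies 8031 bases further in the direction of transcription (chromosome 5, 104384701 to 104384760) and did not follow the first. It gave 1.06, -0.38 and 0.25 on Mx+tumor, 0.37, -0.02 and -0.85 on Mx-tumor, 0.46, -0.34 and -0.05 on Mx+liver, and -0.17, -0.08 and -1.01 on Mx-liver. All 4 groups overlapped on it, and the difference between Mx+tumor and Mx-tumor was 0.48 (SE 0.46), the opposite sign of the brighter probe. Across the 12 arrays, which share slides and tissue, the 2 probes had Pearson r = 0.19 and Spearman rho = 0.27. With the mean of both probes in place of the brighter, the difference between Mx+tumor and Mx-tumor was -0.38. The lower Hsd17b13 signal of Mx+tumor therefore holds for 1 of 2 probes.

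Hsd17b11 (chromosome 5, 104419127 to 104419186, minus strand) was the steadiest of the 10 genes, with a range of 0.93 over 12 arrays. Its signals were 1.61, 1.88 and 1.81 on Mx+tumor, 1.45, 1.80 and 1.56 on Mx-tumor, 1.68, 1.99 and 2.09 on Mx+liver, and 1.52, 2.14 and 2.37 on Mx-liver. No pair of groups was apart, and the largest difference was that between Mx-tumor and Mx-liver (-0.41, SE 0.28). A second Hsd17b11 probe was well above background on 5 of 12 arrays and was left out.

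Cidea and Cidec encode proteins that sit at the contact between droplets and move fat from the smaller to the larger one. Cidea gave -0.25, -0.36 and 0.50 on Mx+tumor, -0.19, 0.54 and 0.68 on Mx-tumor, -0.55, -0.73 and 2.73 on Mx+liver, and -1.92, -1.38 and -1.35 on Mx-liver. The 3 Mx-liver arrays were the lowest of all 12. Group means were 0.48 ± 1.95 in Mx+liver, 0.34 ± 0.47 in Mx-tumor, -0.04 ± 0.47 in Mx+tumor and -1.55 ± 0.32 in Mx-liver (SD, n = 3 each), and the first 3 of these overlapped. Mx-tumor stood 1.89 above Mx-liver (SE 0.76, 3.71-fold), without overlap, at 1.73 on slide 1 and 1.97 on slide 2. The 2 exchanged arrays brought this to 1.77, still without overlap. Mx+liver stood 2.03 above Mx-liver (SE 0.76, 4.09-fold), also without overlap. Without Mx+liver replicate 3, whose Cidea signal was 2.73, that difference was 0.91, and the other 2 Mx+liver arrays still lay above all 3 Mx-liver arrays. The part of the fat tissue transcripts of that array in the larger value was not tested. Mx+tumor and Mx+liver differed by -0.52 (SE 0.76) and by 0.60 without that array, when the 3 Mx+tumor arrays lay above the other 2 Mx+liver arrays.

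Cidec was the most variable of the 10, with a range of 6.95 over the 12 arrays. It has 2 probes on chromosome 6, the brighter at 113374630 to 113374689 and the other at 113378116 to 113378175 (minus strand), with 3426 bases between them. The second probe is shown because both report the same pattern and its letters, read from the third base, hold no stop codon.
Cidec, dimmer probe: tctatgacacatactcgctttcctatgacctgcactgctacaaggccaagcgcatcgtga
On the brighter probe Cidec gave -1.63, -4.57 and -3.39 on Mx+tumor, -1.56, -1.65 and -1.29 on Mx-tumor, -1.22, -3.59 and 2.38 on Mx+liver, and -1.35, -2.18 and 1.04 on Mx-liver. The Mx-tumor arrays lay close together (mean -1.50 ± 0.19), while Mx+liver held both the highest array and the second lowest (mean -0.81 ± 3.01). The dimmer probe gave -2.09, -4.64 and -4.05 on Mx+tumor, -2.15, -2.25 and -2.27 on Mx-tumor, -0.11, -4.41 and 1.54 on Mx+liver, and -1.80, -2.66 and 0.29 on Mx-liver. The high and low arrays were alike on both probes, with Pearson r = 0.96 and Spearman rho = 0.92 over 12 arrays, so the spread is seen on both probes.

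No pair of groups was apart for Cidec. The difference between Mx+tumor and Mx-tumor was -1.69 (SE 1.33), made up of -0.07 on slide 1 and -2.51 on slide 2. Between Mx+liver and Mx-liver it was 0.02 (SE 1.33), and -1.58 without Mx+liver replicate 3. Between Mx+tumor and Mx+liver it was -2.38 (SE 1.33), and -0.79 without that array. The second highest Cidec value, 1.04, was that of Mx-liver replicate 3. On that array Plin1 was at -5.45 and Ucp1 at -7.15, its lowest, while Cfd, at -1.23, was second highest. Mx-liver replicate 3 was also the highest of the 12 arrays for 2 of 8 brown markers, Elovl3 (0.55) and Cox7a1 (1.55). It was the highest for 0 of 18 white markers.

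**Figure D2:**
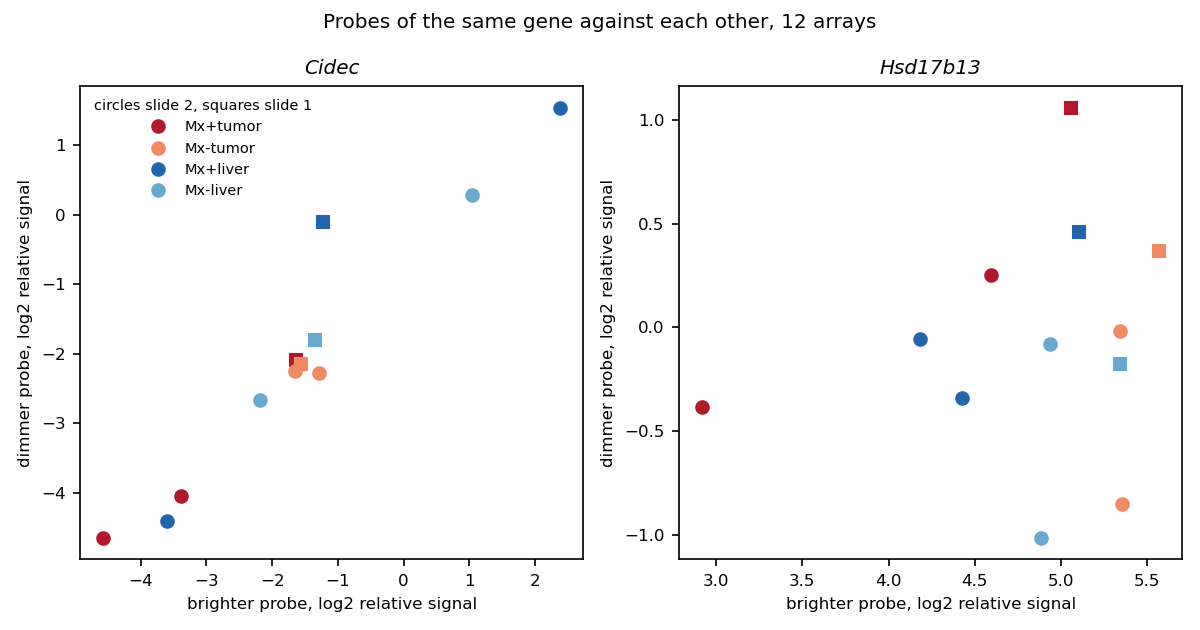
Relative log2 signal of the dimmer probe (vertical axis) against the brighter probe (horizontal axis) of Cidec and of Hsd17b13, 1 point per array (12 arrays), coloured by group, with squares for slide 1 and circles for slide 2. The Cidec points follow a line (Pearson r = 0.96), whereas the Hsd17b13 points do not (Pearson r = 0.19).

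Pnpla2 encodes ATGL, the lipase that removes the first fatty acid from stored triglyceride, and G0s2 encodes its small protein inhibitor. The G0s2 probe (chromosome 1, 195098925 to 195098984, minus strand) is shown from its first ATG, in capitals, because the G0s2 groups named below were apart with the arrays as filed, with 2 exchanged and without Mx+liver replicate 3.
G0s2, probe from the first ATG: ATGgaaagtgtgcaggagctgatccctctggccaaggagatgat
G0s2 signals were -0.53, -0.76 and -0.14 on Mx+tumor, 0.55, -0.05 and 0.51 on Mx-tumor, 0.73, 0.76 and 0.80 on Mx+liver, and 1.21, 0.05 and -0.20 on Mx-liver. Every Mx+tumor array lay below every Mx-tumor array and below every Mx+liver array. Mx+tumor overlapped with Mx-liver, whose replicate 3 (-0.20) lay below Mx+tumor replicate 3 (-0.14). Mx+tumor averaged -0.48 ± 0.31 and Mx-tumor 0.34 ± 0.33 (SD, n = 3 each), a difference of -0.82 (SE 0.37, 1.76-fold lower), at -1.08 on slide 1 and -0.69 on slide 2. Against Mx+liver (0.76 ± 0.03) the difference was -1.24 (SE 0.37, 2.37-fold lower), at -1.26 on slide 1 and -1.23 on slide 2. With the 2 arrays exchanged these were -0.88 and -1.18, and without Mx+liver replicate 3 they were -0.82 and -1.22. Leaving out any 1 array kept the first between -1.01 and -0.67 and the second between -1.41 and -1.10. Mx-tumor and Mx-liver, by contrast, had nearly the same mean (0.34 ± 0.33 and 0.35 ± 0.75, difference -0.02, SE 0.37).

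Pnpla2 (chromosome 7, 148645928 to 148645987, plus strand) differed more between slides than between groups. Its signals were 3.90, 3.35 and 3.34 on Mx+tumor, 4.31, 3.10 and 3.09 on Mx-tumor, 4.43, 3.34 and 3.91 on Mx+liver, and 4.70, 3.05 and 3.60 on Mx-liver. In each group the slide 1 array was the highest. The 4 differences between groups ran from -0.36 (Mx+tumor against Mx+liver, SE 0.49) to 0.11 (Mx+liver against Mx-liver, SE 0.49), and the groups overlapped in all of them.

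Mogat1 encodes a monoacylglycerol acyltransferase, an enzyme of triglyceride synthesis that is known to be raised in fatty mouse liver. Mogat1 was dim but well above background on all 12 arrays (chromosome 1, 78534677 to 78534736, plus strand). It gave -3.41, -3.92 and -3.73 on Mx+tumor, -2.77, -4.85 and -4.81 on Mx-tumor, -2.90, -3.95 and -2.15 on Mx+liver, and -1.90, -3.58 and -3.32 on Mx-liver. On each slide the Mx-tumor arrays lay below the Mx-liver arrays (-0.87 on slide 1 and -1.38 on slide 2), but over both slides the groups overlapped (difference -1.21, SE 0.65). Mx+tumor lay 0.69 below Mx+liver (difference -0.69, SE 0.65), and the difference was -0.26 without Mx+liver replicate 3.

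Cd36 encodes the membrane protein that takes up long-chain fatty acids, present in liver on hepatocytes, endothelial cells and macrophages. Cd36 (chromosome 5, 17288600 to 17288659, minus strand) gave 1.98, 1.73 and 2.87 on Mx+tumor, 2.20, 2.03 and 1.75 on Mx-tumor, 2.28, 3.70 and 3.69 on Mx+liver, and 3.10, 2.81 and 3.68 on Mx-liver. All 3 Mx-tumor arrays lay below all 3 Mx-liver arrays. Mx-tumor averaged 2.00 ± 0.23 and Mx-liver 3.20 ± 0.44 (SD, n = 3 each), a difference of -1.20 (SE 0.45, 2.30-fold lower), at -0.90 on slide 1 and -1.35 on slide 2. Exchanging the 2 arrays left it at -1.17, without overlap. Between Mx+tumor (2.20 ± 0.60) and Mx+liver (3.22 ± 0.82) the difference was -1.03 (SE 0.45) with overlap, and -0.79 without Mx+liver replicate 3. Between genotypes the Cd36 differences were within their errors, at 0.20 for Mx+tumor against Mx-tumor and 0.03 for Mx+liver against Mx-liver (SE 0.45 each). Macrophage markers, whose mean was 0.65 to 2.11 on the Mx-tumor arrays and 1.53 to 2.64 on the Mx-liver arrays, lay on the same side as Cd36: 11 of 12 tested were lower in Mx-tumor than in Mx-liver (median -0.59), and their mean was lower in each same-numbered pair of arrays. Of the endothelial markers 12 of 13 were lower (median -0.20), with means of 0.33 to 1.01 on Mx-tumor and 0.97 to 1.10 on Mx-liver. Of 12 hepatocyte markers 9 were lower in Mx-tumor than in Mx-liver (median -0.20), as were 44.7% of all genes. In Mx+tumor against Mx+liver, where Cd36 was lower too, 7 of 12 macrophage markers were higher (median 0.08). So were 8 of 13 endothelial markers (median 0.08), while hepatocyte markers were split 6 and 6 (median -0.02). The part of any of these cells in the Cd36 differences was not tested.

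Fabp4 encodes the fatty acid binding protein of adipocytes, macrophages and capillary endothelium. Signals of Fabp4 (chromosome 3, 10204452 to 10204511, minus strand) were 3.07, 4.18 and 2.99 on Mx+tumor, 2.66, 3.56 and 3.36 on Mx-tumor, 3.85, 2.88 and 5.19 on Mx+liver, and 3.73, 3.32 and 3.13 on Mx-liver. All groups overlapped. Mx+liver and Mx-liver (3.98 ± 1.16 and 3.39 ± 0.30, SD, n = 3 each) differed by 0.58 (SE 0.55), and by -0.02 without Mx+liver replicate 3. Mx+tumor (3.42 ± 0.67) and Mx+liver differed by -0.56 (SE 0.55), and by 0.05 without that array. Mx-tumor against Mx-liver gave -0.20 (SE 0.55) as filed and 0.20 with the 2 arrays exchanged, so its sign is not settled.

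**Figure D3:**
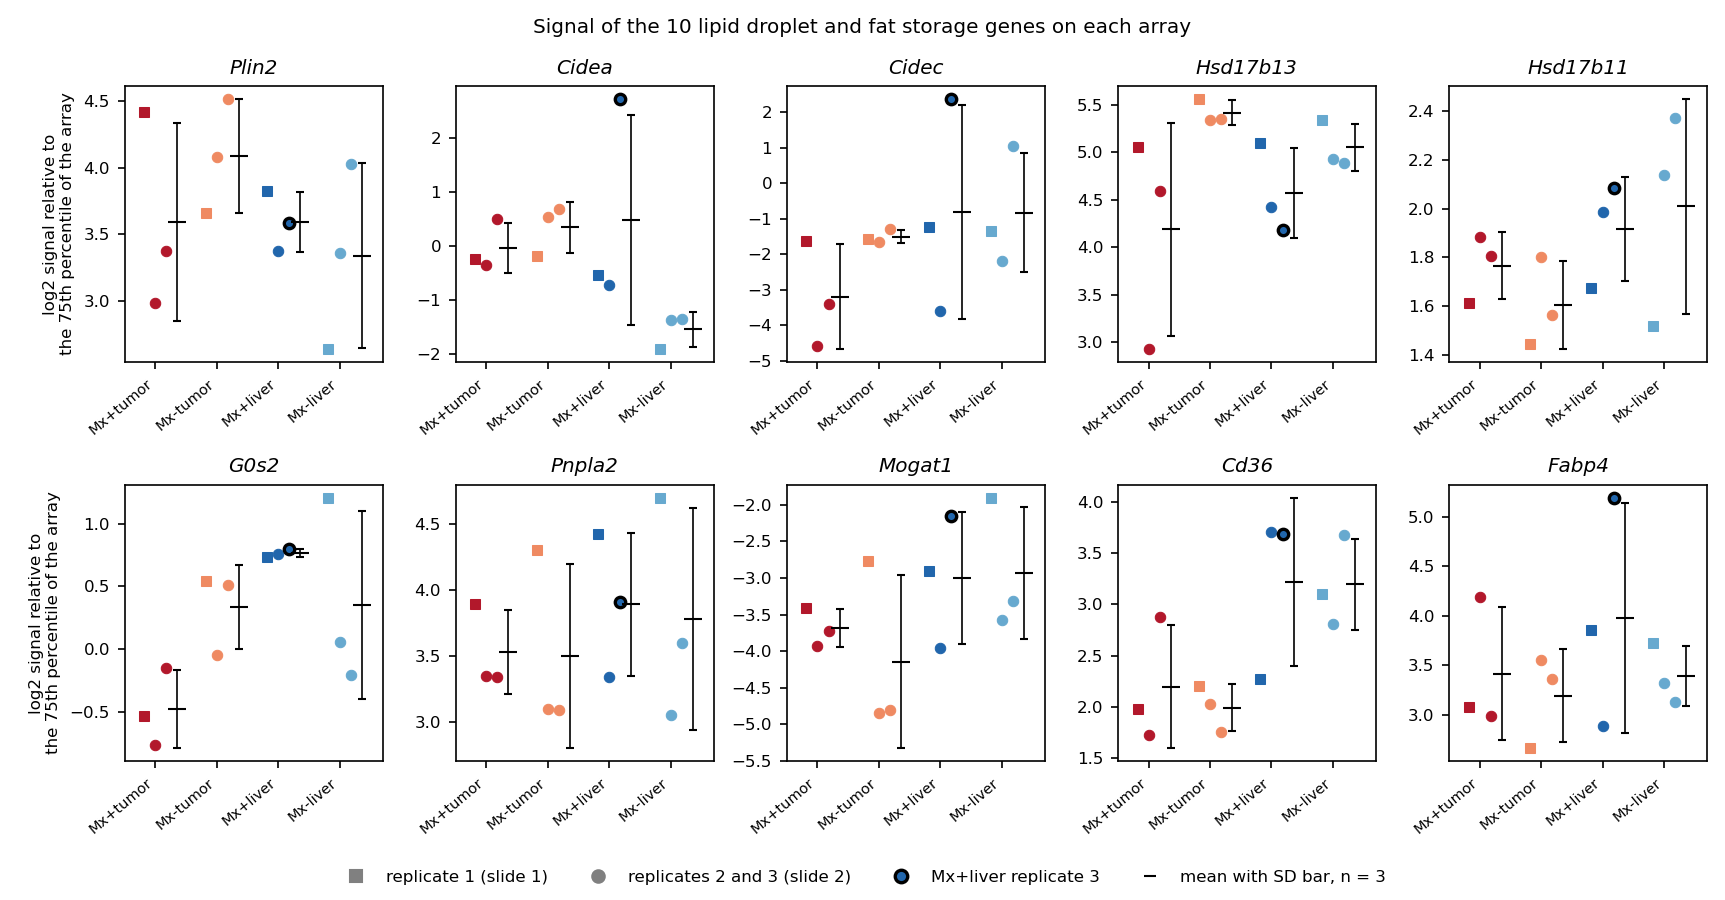
Relative log2 signal (vertical axis, a separate scale in each panel) of the brightest probe of each of the 10 genes on the 12 arrays, by group (horizontal axis), with squares for slide 1, circles for slide 2 and the mean with its SD beside each group of 3. Cidea is lowest on the 3 Mx-liver arrays. By mean, G0s2 is lowest in Mx+tumor, with overlap with Mx-liver, and Cd36 is lower in both tumor groups. Mx+liver replicate 3, circled in black, is the highest array for Cidea (2.73), Cidec (2.38) and Fabp4 (5.19).

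Between genotypes the 10 genes lay on both sides of 0. In Mx+tumor against Mx-tumor 5 were higher and 5 lower, with a median difference of -0.17 (all genes -0.02), and with the 2 arrays exchanged 3 were higher and 7 lower (median -0.22). G0s2 and Hsd17b13 were lower without overlap, where 2.67% of all genes were, and 0 were higher without overlap, where 2.74% were (5.41% in either direction). In Mx+liver against Mx-liver 7 were higher and 3 lower, with a median of 0.07 (all genes 0.05), and -0.10 without Mx+liver replicate 3, where 4 were higher and 6 lower. With the 2 arrays exchanged 6 were higher and 4 lower (median 0.03). Cidea was higher without overlap, as were 6.28% of all genes, and 0 were lower without overlap, where 3.21% were (9.49% in either direction). These shares are printed for scale and nothing is read from them, because the genes were chosen with these comparisons in view.

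For Mx-tumor against Mx-liver 3 were higher and 7 lower, with a median of -0.24 (all genes 0.04). That split was 5 and 5 with the 2 arrays exchanged (median -0.10), on slide 2 alone and without Mx-liver replicate 1 (median 0.07). Cidea and Hsd17b13 were higher without overlap (4.63% of all genes), Hsd17b13 no longer so with the 2 arrays exchanged, and Cd36 was lower without overlap (2.37%). For Mx+tumor against Mx+liver all 10 were lower, with a median of -0.54 (all genes -0.04), Plin2 by less than 0.01, and with the 2 arrays exchanged 9 were lower (median -0.59). Only G0s2 was lower without overlap (2.25%). Without Mx+liver replicate 3 the median was -0.31 and 8 of 10 were lower, with Cidea now higher by 0.60 and Fabp4 by 0.05. Cidec moved most, to -0.79. Each deletion comparison shares a group of arrays with both of these, so likeness between them is not counted as a result. On the 2 slides taken apart the sign was the same for 6 of the 10 genes in Mx+tumor against Mx-tumor, 3 in Mx+liver against Mx-liver, and 8 in each tumor against liver comparison.

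The deletion difference in HCC minus that in liver had a median of -0.55 over the 10 genes (all genes -0.06), and was negative for 7. Without Mx+liver replicate 3 the median was -0.09 (all genes -0.15). The largest negative values were those of Cidea (-2.41, SE 1.07), Cidec (-1.71, SE 1.88) and G0s2 (-1.23, SE 0.53). Without that array Cidea gave -1.29, Cidec -0.11 and G0s2 -1.21, so the G0s2 value was almost the same.

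**Figure D4:**
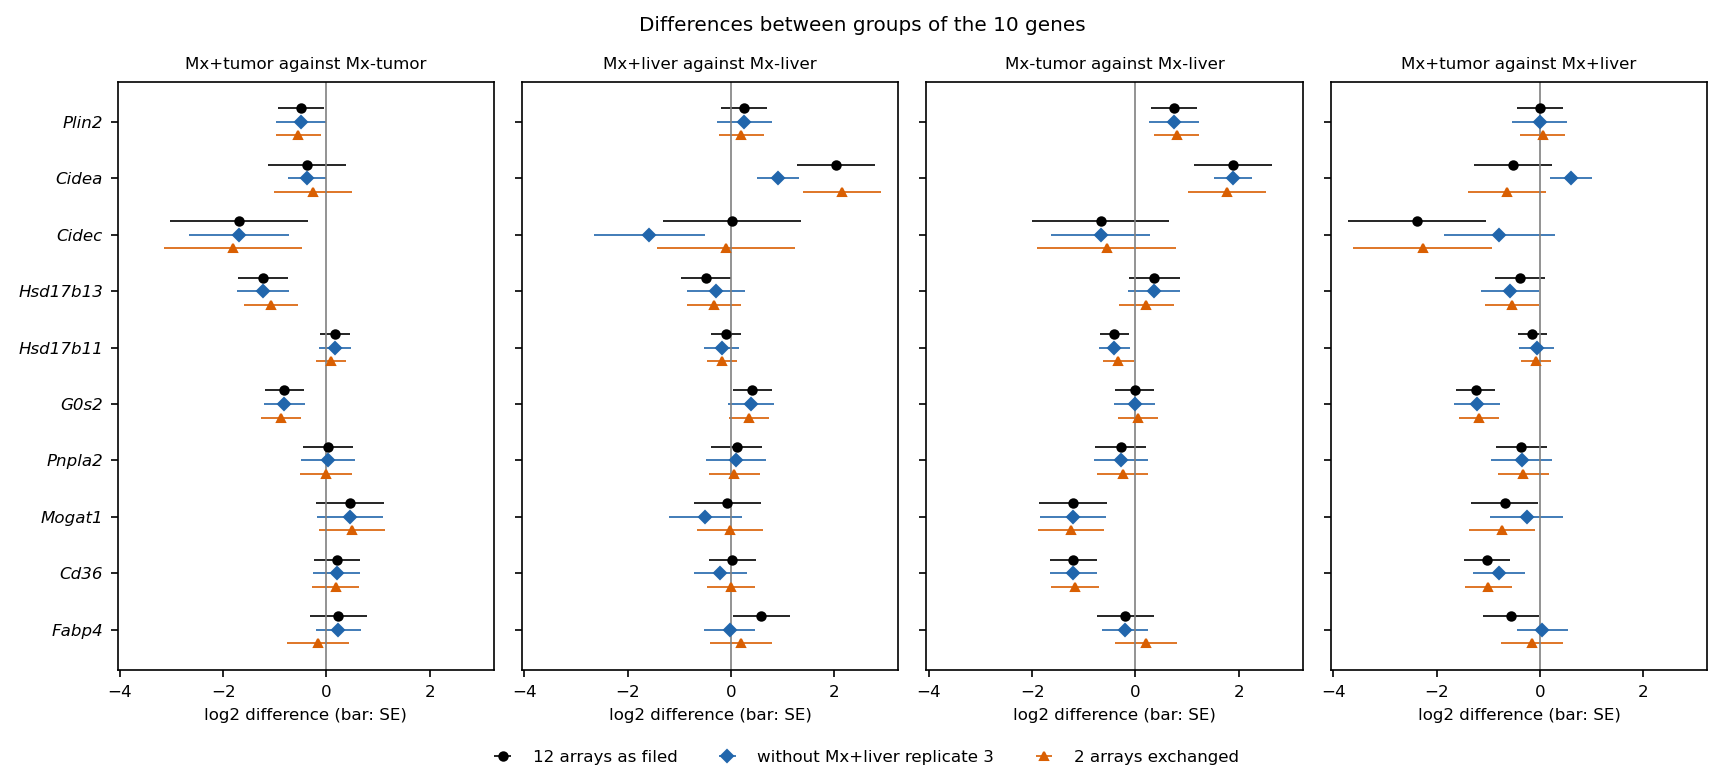
Log2 difference between groups (horizontal axis, bar = SE from the limma fit) for each of the 10 genes (vertical axis) in 4 comparisons, with black circles for the 12 arrays as filed, blue diamonds without Mx+liver replicate 3 and orange triangles with the 2 arrays exchanged. The Cidea difference between Mx+liver and Mx-liver shrinks to 0.91 and the Cidec difference between Mx+tumor and Mx+liver to -0.79 without Mx+liver replicate 3, while the G0s2 and Cd36 points lie close together.

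The wider pathway was read through 6 lists with 90 genes that do not include the 10. In limma with Benjamini-Hochberg adjustment over 26506 genes, 0 genes of any list passed in any of the 5 contrasts, and 0 genes passed at all (0% called). At an unadjusted p under 0.05 there were 486 genes (1.83%) for Mx+tumor against Mx-tumor, 803 (3.03%) for Mx+liver against Mx-liver, 444 (1.68%) for Mx-tumor against Mx-liver and 227 (0.856%) for Mx+tumor against Mx+liver. On the 8 arrays of slide 2 alone 1 gene passed, lower with deletion, in each deletion comparison (0.00368%). The values that follow are therefore descriptions of genes that did not pass.

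Among droplet coat and growth proteins (18 genes measured), 12 were lower in Mx+tumor than in Mx-tumor (median -0.18, all genes -0.02). In Mx-tumor against Mx-liver 10 were lower (median -0.12, all genes 0.04). Of all genes 52.5% and 44.7% were lower in these comparisons. Plin5, the perilipin that ties droplets to mitochondria, differed by -0.10 (SE 0.40) between Mx+tumor and Mx-tumor and by 0.16 (SE 0.40) between Mx+liver and Mx-liver. Fitm1, which encodes a protein that helps droplets to form, best known from muscle, differed by -4.23 between Mx-tumor and Mx-liver (SE 1.49, limma unadjusted p = 0.0163). Its Mx-tumor signals were 0.46, -4.84 and -6.42, its Mx-liver signals 0.38, 0.04 and 1.44, so the slide 1 arrays did not share in it.

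Of the lipolysis genes (14 of 15 measured), 11 were lower in Mx+liver than in Mx-liver (median -0.41, all genes 0.05). In Mx-tumor against Mx-liver 11 were lower too (median -0.40, all genes 0.04). Of all genes 44.9% and 44.7% were lower in these comparisons, which share the 3 Mx-liver arrays and so are not separate observations. Abhd5, the activator of ATGL and so the counterpart of G0s2, differed by 0.28 (SE 0.35) between Mx+tumor and Mx-tumor on its brightest probe. Between Mx+tumor and Mx+liver it differed by 0.30 (SE 0.35). Its other probes did not share 1 order of the tumor groups. The means of Mx+tumor, Mx-tumor and Mx+liver were 1.135, 1.043 and 0.701 on the first. They were -0.203, 0.214 and -0.359 on the second, where Mx+tumor was thus below Mx-tumor. The carboxylesterase gene Ces1f was lower in Mx-tumor than in Mx-liver without overlap (-2.55, SE 0.89, limma unadjusted p = 0.0155), at 0.20, -0.57 and -1.13 on Mx-tumor and 0.53, 2.74 and 2.89 on Mx-liver.

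Triglyceride synthesis genes (16 measured) had medians from -0.16 to 0.08 in the 4 comparisons. Dgat1 and Dgat2, the enzymes of the last step, differed by 0.05 (SE 0.45) and -0.03 (SE 0.26) between Mx+tumor and Mx-tumor. Mogat2, the relative of Mogat1 best known from intestine, gave 1.29, 1.63 and -0.32 on Mx+tumor and 0.93, -2.68 and -2.29 on Mx-tumor (difference 2.21, SE 1.19, limma unadjusted p = 0.0896).

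For uptake, binding and activation of fatty acids (16 measured), Fabp1, the main fatty acid binding protein of hepatocytes, differed by -0.62 between Mx+tumor and Mx-tumor and by -0.63 between Mx+liver and Mx-liver (SE 0.40 each, limma unadjusted p = 0.156 and unadjusted p = 0.150). Its intestinal relative Fabp2 differed by -1.91 between Mx+tumor and Mx-tumor (SE 0.67, limma unadjusted p = 0.0164), at 2.61, 0.00 and 1.66 on Mx+tumor and 2.51, 3.44 and 4.04 on Mx-tumor. Fabp7, best known from brain, was lower in both tumor groups than in liver of the same genotype by mean. The differences were -1.66 for Mx-tumor and -1.61 for Mx+tumor (SE 0.72 each, limma unadjusted p = 0.0418 and unadjusted p = 0.0465). On slide 1, as filed, little of this was seen. Mx-tumor gave -0.72 there and Mx-liver -0.65, while Mx+tumor gave -1.33 and Mx+liver -1.15. Mx+tumor and Mx+liver overlapped as filed, but not with the 2 arrays exchanged.

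Lipoprotein genes (10 measured, Plin5 and Cideb being shared with the droplet list) had Apoa4, a lipoprotein gene known to follow liver fat in mice, higher by 0.85 in Mx+tumor than in Mx+liver without overlap (SE 0.35, limma unadjusted p = 0.0330). Between Mx+liver and Mx-liver the Apoa4 difference was -0.76 (SE 0.35), also without overlap. Of the regulators (17 measured), Pparg differed by -0.40 (SE 0.63) between Mx+tumor and Mx-tumor and by -0.23 (SE 0.63) between Mx+liver and Mx-liver. Fgf21, a liver hormone raised in fasting, was well above background on 3 of 3 Mx-tumor arrays and on 1 of 3 Mx-liver arrays, so that its fitted difference of 2.64 (SE 0.96, limma unadjusted p = 0.0192) rests partly on values below background. Car3, a carbonic anhydrase abundant in liver and fat, is on the white adipocyte list. With the arrays as filed it was lower with deletion in both tissues without overlap. The differences were -1.35 in HCC and -1.41 in liver (SE 0.60 each, limma unadjusted p = 0.0463 and unadjusted p = 0.0388). With the 2 arrays exchanged the HCC groups stayed apart. The liver groups then overlapped, as the array taken as Mx+liver replicate 1 gave 5.51 and Mx-liver replicate 3 gave 5.47.

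Among the 10 genes themselves, the signals of Pnpla2 and Mogat1 were most alike over the 12 arrays after slide means were subtracted (Pearson r = 0.86, and 0.77 without Mx+liver replicate 3). Mogat1 and Cd36 followed (r = 0.76 and 0.73), and Plin2 and Mogat1 ran most opposite over the 12 arrays (r = -0.56, and -0.72 without that array). Cidea and Mogat1 had r = 0.12 over the 12 arrays and -0.74 without that array. The arrays share slides, groups and the array with fat transcripts, so these values describe likeness only. By the same measure the named genes most like Cd36 were Folh1 (r = 0.98), Hipk2 and Nol3 (r = 0.96 each). Those most like Hsd17b13 were Phlpp1 (0.97), Wsb1 (0.96) and N6amt1 (0.95), those most like G0s2 were Coq6 and Sgcb (0.91 each) and Crygf (0.89), and those most like Cidea included Slc27a3 (0.88) and Olfr1163 (0.87). Without Mx+liver replicate 3 these Cidea values were 0.76 and 0.74. The first for Plin2 was Cnnm1 (0.92), for Hsd17b11 Shbg (0.86), for Pnpla2 Sult2a7 (0.92), for Mogat1 Cyp4a10 (0.94) and for Cidec Hoxc9 (0.89, and 0.80 without Mx+liver replicate 3). For Fabp4 the first was Tusc5 (now Trarg1), itself a white adipocyte marker (r = 0.96, and 0.91 without Mx+liver replicate 3). Tusc5 was well above background on 7 of 12 arrays, so these 2 values rest partly on signals below background.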

How the data were processed

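RNA of 12 tissue samples was measured on single-colour Agilent mouse arrays of 62976 spots, 59305 of them not controls. The deposited intensity values are processed signals of Agilent's Feature Extraction 10.7, a version the submitters' processing notes give, and the files place probes on mm9, per the file headers. The log2 values of the deposited value table, whose 75th percentile lies near 0 on each array, served only as an alternative. Unflagged spots of a probe were averaged, log2 was taken and the 75th percentile of each array over non-control probes was subtracted. A probe was kept where every array of 1 or more groups had it well above background, and the brightest probe stood for a gene, which left 26506 genes.

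limma 3.58.1 in R 4.3.3 fitted 4 group means over 12 arrays (8 residual degrees of freedom), with Benjamini-Hochberg adjustment at 0.05 over all genes in each of 5 contrasts. The model was also run on simulated data with noise independent between arrays. That simulation held no slide or replicate effect, so it cannot speak for a fit that leaves these out. Birc5 was also tested by two-sided exact permutation. The 10 genes, the lists and the tests were chosen with earlier results of these data known. Named are all 10 genes, Birc5, 7 adipocyte markers, 7 partner genes, up to 2 genes per direction of smallest p in each list, and the 3 most alike genes of a member, 1 gene not being reported here. Other markers, muscle and sex-linked genes and genes passing under 1 alternative were named after their values were seen. No exon annotation of mm9 was used here. Same-numbered arrays of the 4 groups deviated together from their group means. All 18 pairs had r over 0.1 (0.28 to 0.74), and 11 of 12 arrays correlated best with their own number. Slide was not removed first, and all replicate 1 arrays share slide 1. The main fit, its SEs and the permutation did not use this pairing, which entered the fits only as the replicate block. Arrays, not reads, limit the precision. Alternatives were quantile normalization, normexp background (offset 50), other probe filters, the mean of probes, slide or replicate number as a block, slide 2 alone, the exchanged arrays and leaving out each array.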

Additional observations from a re-analysis of the deposited data

How the results depend on the processing

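The count of genes passing the adjusted p stayed at 0 in 131 of 135 combinations of contrast and alternative. On slide 2 alone it was 1 for Mx+tumor against Mx-tumor and 1 for Mx+liver against Mx-liver, XIST in both, and without the 2 arrays in doubt and with slide as a block it was 2 for Mx+tumor against Mx-tumor (Dntt and Cyp3a41b). Leaving out 1 array gave 0 to 1 for Mx+liver against Mx-liver, the 1 being without Mx+liver replicate 2. The genes named are given because of these values. Pathway lists stayed at 0 passed in all 135. Median differences of the 10 genes moved by less than the spread between arrays in all 135, yet the sign of the median changed in Mx+liver against Mx-liver (-0.10 to 0.40 leaving out 1 array, the lowest without Mx+liver replicate 3), in Mx-tumor against Mx-liver (-0.29 to 0.07) and in the deletion difference between tissues (0.07 with slide as a block and without Mx+liver replicate 3), and of 1350 single-gene values 18 moved by more than that spread. The replicate block, which pairs arrays of the same number, changed no call, with 0 genes passed in each contrast, and Birc5 at -1.08 in HCC and -0.96 in liver. The alternatives without Mx+liver replicate 3 that also exchange arrays or block slide were chosen after seeing the data.

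Birc5 was past an unadjusted limma p of 0.05 under some alternatives, and the cause was not tested. In HCC it gave -1.25 on slide 2 alone, -1.08 in a fit of only the groups compared, -1.62 with the 2 arrays exchanged, with or without slide as a block or Mx+liver replicate 3, -1.61 without those 2 arrays and with slide as a block, and -1.62 in the value table. In liver it gave -1.22 on slide 2 alone, -1.50 with the arrays exchanged, with or without slide as a block, -1.59 without those 2 arrays and with slide as a block, and -1.51 in the value table. Leaving out 1 array gave -1.24 to -0.76 in HCC and -1.96 (without Mx+liver replicate 1, past that p) to -0.21 (without Mx+liver replicate 3) in liver, where leaving out Mx-liver replicate 1 gave -0.22.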
